A study of Mus musculus with 20 samples.

Results

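The genes described here are Piezo1, Piezo2, Tmem63a, Tmem63b and Tmem63c, which code for channels that open when a membrane is stretched. All 5 were found by symbol among 46517 genes of a table of RNA sequencing counts from mouse white matter, and all 5 passed the filter on low counts in every comparison. They were brought together because the difference between knockout and wild-type corpus callosum in Piezo2 stood out in an earlier analysis of these data. That difference is given below as a description, with no test. The table holds 20 libraries: 5 of Zdhhc9 knockout optic nerve (KO_ON), 4 of wild-type optic nerve (WT_ON), 6 of Zdhhc9 knockout corpus callosum (KO_CCg) and 5 of wild-type corpus callosum (WT_CCg). Zdhhc9 is a palmitoyltransferase, which adds a fatty acid to other proteins, and both tracts consist largely of axons wrapped in myelin by oligodendrocytes. The sample labels call the mice knockout and the series description calls them knockdown, and the sources used here name no strain, age or altered part of the gene. Tissue was frozen, and the callosum was cut out of 100 μm frozen sections between Bregma 0.98 mm and 0.62 mm.

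Both families turn mechanical force into an ion current. Piezo proteins are very large cation channels; Piezo1 is best known from blood vessels and red cells and has been tied to the sensing of tissue stiffness by oligodendrocyte precursors, and Piezo2 from the touch and position sense of sensory neurons. Tmem63 proteins are relatives of the osmosensitive OSCA channels of plants. In people, changes in TMEM63A cause a myelin disorder of infancy, changes in TMEM63B a severe epilepsy and changes in TMEM63C a form of spastic paraplegia.

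The promoters of 4 of the 5 genes were matched in RefSeq's table for the mouse build GRCm38.p6 (mm10). They are shown for Piezo1 and Tmem63c, which differed between the tracts in opposite directions, and for Tmem63a, the member with the highest level per length. Each runs 5′ to 3′ on the gene's strand over 300 bases, and capitals mark TATAAA or GGGCGG or ACAAAG on either strand.
Piezo1, minus strand of chr8:122551280-122551579: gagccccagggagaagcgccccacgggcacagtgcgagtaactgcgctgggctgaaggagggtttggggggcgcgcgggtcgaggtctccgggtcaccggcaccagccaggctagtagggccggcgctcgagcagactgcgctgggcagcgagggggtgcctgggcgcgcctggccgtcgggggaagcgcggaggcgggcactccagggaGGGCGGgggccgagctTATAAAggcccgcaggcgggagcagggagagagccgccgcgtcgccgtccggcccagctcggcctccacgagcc
Tmem63a, plus strand of chr1:180942268-180942567: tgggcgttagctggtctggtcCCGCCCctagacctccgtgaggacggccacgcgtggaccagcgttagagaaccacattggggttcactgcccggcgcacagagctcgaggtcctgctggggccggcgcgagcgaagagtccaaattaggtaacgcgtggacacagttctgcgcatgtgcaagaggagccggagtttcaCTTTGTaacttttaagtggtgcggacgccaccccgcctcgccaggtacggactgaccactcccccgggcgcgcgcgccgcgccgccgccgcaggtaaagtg
Tmem63c, first start, plus strand of chr12:87021090-87021389: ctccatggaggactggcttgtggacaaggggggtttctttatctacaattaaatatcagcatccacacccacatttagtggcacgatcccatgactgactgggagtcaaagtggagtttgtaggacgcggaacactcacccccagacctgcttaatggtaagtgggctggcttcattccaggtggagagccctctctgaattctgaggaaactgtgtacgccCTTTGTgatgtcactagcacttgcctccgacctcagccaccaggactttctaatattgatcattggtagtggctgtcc
Tmem63c, second start, plus strand of chr12:87026042-87026341: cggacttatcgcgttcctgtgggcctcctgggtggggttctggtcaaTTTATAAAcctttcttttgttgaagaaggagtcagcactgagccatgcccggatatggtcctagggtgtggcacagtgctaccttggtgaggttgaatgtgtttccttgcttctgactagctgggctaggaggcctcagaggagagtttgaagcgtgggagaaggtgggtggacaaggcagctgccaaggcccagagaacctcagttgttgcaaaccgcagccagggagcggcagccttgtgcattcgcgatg

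The Piezo1 and Tmem63a promoters held 34 and 33 CG dinucleotides, against a median of 7 over all 32851 promoters of the table, and the Tmem63b promoter held 34. Both Tmem63c promoters were poorer, with 5 at the first start and 9 at the second. Of all promoters 13.6% held TATAAA on either strand, 35.7% held GGGCGG and 18.7% held ACAAAG. In the second Tmem63c promoter the TATAAA letters and their reverse complement overlap. These are matches of letters only.

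Per length, Tmem63a was the most abundant of the 5 in every group and Tmem63b came next. Levels were compared between genes as CPM (a gene's count relative to its library's total, scaled with TMM factors) per kilobase of annotated exons. Tmem63a stood at 98.4 ± 9.22 CPM per kilobase in KO_ON (SD, n = 5), 101 ± 13.4 in WT_ON (n = 4), 52.2 ± 12.4 in KO_CCg (n = 6) and 73.1 ± 13.5 in WT_CCg (n = 5). Tmem63b stood at 19.7 ± 1.6, 18.3 ± 1.0, 22.0 ± 3.32 and 21.8 ± 2.66 CPM per kilobase in KO_ON, WT_ON, KO_CCg and WT_CCg. The other members exchanged places between the tracts. In optic nerve the order went on with Piezo2, at 3.26 ± 0.783 in KO_ON and 3.38 ± 1.59 CPM per kilobase in WT_ON, then Piezo1, at 2.75 ± 0.642 and 2.25 ± 0.383, then Tmem63c, at 0.371 ± 0.212 and 0.241 ± 0.141. In callosum Tmem63c came next after Tmem63b, at 5.6 ± 2.29 in KO_CCg and 3.34 ± 1.84 CPM per kilobase in WT_CCg, then Piezo1, at 0.786 ± 0.151 and 0.795 ± 0.108, and Piezo2 last, at 0.171 ± 0.0447 and 0.398 ± 0.072.

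Within the ranks, Piezo2 and Piezo1 in optic nerve were the neighbours whose ranges overlapped in both genotypes. The ratio of Piezo2 to Piezo1 per kilobase ran from 0.836 to 1.83 over KO_ON libraries and from 1.01 to 2.04 over WT_ON libraries. In callosum it ran from 0.139 to 0.327 in KO_CCg and from 0.425 to 0.574 in WT_CCg, so Piezo1 was the higher of the pair in every callosum library. Of the summed level of the Tmem63 genes per kilobase, Tmem63a held 81.0% to 84.1% in KO_ON, 82.9% to 86.0% in WT_ON, 56.5% to 78.3% in KO_CCg and 66.9% to 81.4% in WT_CCg. The lengths are those of all annotated exons, and transcripts in use may be shorter; all 20 ranks were the same per kilobase of the longest transcript.

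**Figure D1:**
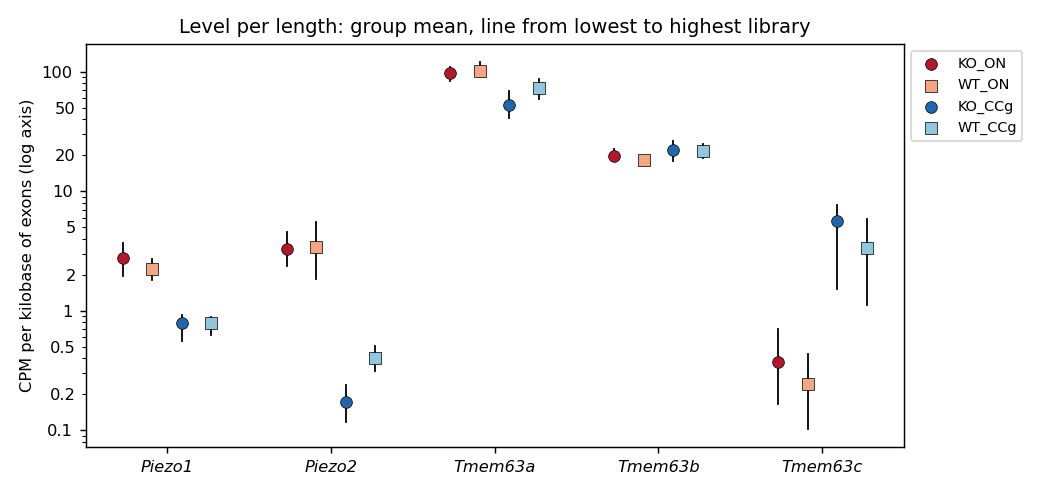
Level of each channel gene per length in the 4 groups, as CPM per kilobase of annotated exons on a log axis. Symbols are group means and lines run from the lowest to the highest library; Tmem63a is highest throughout, and Piezo2 and Tmem63c change rank between optic nerve and callosum.

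Facts of the whole series bear on these values. The libraries held 15401130 to 26095622 estimated counts each. Zdhhc9 had 35.1 to 51.5 CPM in KO_ON, 115 to 150 CPM in WT_ON, 40.8 to 56.0 CPM in KO_CCg and 153 to 201 CPM in WT_CCg, so every knockout library lay below every wild-type library of its tract. Callosum sample numbers have 2 digits (2 KO_CCg and 2 WT_CCg libraries) or more digits. On the first principal component of callosum the 2-digit libraries lay at -63.8 to -6.9 and the others at -15.7 to 44.9, which overlap slightly, so values among the longer numbers are given as well; what the formats stand for is not stated in the labels. The library KO_ON_719856 stood apart in optic nerve, with a summed level of 6 retina and pigment cell markers of 32.2 CPM, against at most 5.78 CPM in any other optic nerve library. Without it the log2 fold changes of optic nerve over callosum in knockout were 4.26 for Piezo2, 1.77 for Piezo1 and 0.97 for Tmem63a. For Tmem63b and Tmem63c they were -0.14 and -4.28. Calls of the members other than Piezo2, which is a description, were the same. The log2 fold change of Tmem63c between the genotypes in optic nerve was 0.25 in place of 0.59. Markers of mature oligodendrocytes, 12 genes in all, summed to 32900 CPM or more in every library. Nothing in the labels says that libraries come from separate animals, so p-values measure the spread between these libraries, which may in part be technical.

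Piezo2 had many times more transcript in optic nerve than in callosum in both genotypes. Its KO_CCg and WT_CCg levels are both part of what chose the members, so the folds in both genotypes lean on them. The choice went by the difference between those levels, so the folds in both genotypes are given as descriptions, with no test. Piezo2 (ENSMUSG00000041482.15, mm10 chromosome 18, 63010213 to 63387183) had 52.6, 53.8, 77.8, 40.8 and 54.8 CPM in KO_ON libraries, against 2.0 to 4.1 CPM in KO_CCg libraries (median 3.06). It had 95.2, 60.2, 31.5 and 45.4 CPM in WT_ON libraries, against 7.08, 5.33, 8.64, 7.02 and 6.12 CPM in WT_CCg libraries. Every optic nerve library lay above every callosum library, by a wide gap. The share of all genes whose ranges lie apart was not counted, here and for the members that follow. In knockout the level was 19.0-fold higher in optic nerve (95% interval 13.1 to 27.6, log2 fold change 4.25, SE 0.26). In wild type it was 8.48-fold higher (5.77 to 12.5, log2 fold change 3.08, SE 0.27). In bulk tissue, fewer cells of a type and less RNA per cell cannot be told apart, here and in all results that follow.

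Piezo1, the other channel of the family, was higher in optic nerve as well, by a smaller factor. Piezo1 (ENSMUSG00000014444.15, chromosome 8, 122481698 to 122551329) had 36.4, 26.3, 24.6, 19.3 and 30.0 CPM in KO_ON libraries, against 5.51 to 9.21 CPM in KO_CCg libraries (median 8.46). It had 27, 23.5, 18 and 21 CPM in WT_ON libraries, against 7.5, 6.2, 8.71, 8.74 and 8.33 CPM in WT_CCg libraries. The ranges of the tracts did not overlap in either genotype. The fold was 3.49 in knockout (2.76 to 4.42; edgeR adjusted p = 9.16e-09) and 2.83 in wild type (2.18 to 3.67; edgeR adjusted p = 7.31e-07). Exons of Piezo1 share 2441 bases with Ctu2, which lies on the other strand, and no source used here says whether the authors' counting used strand. Ctu2 had 15.5 ± 1.26 CPM in KO_ON, 14.0 ± 0.855 in WT_ON, 13 ± 2.59 in KO_CCg and 13.5 ± 1.96 in WT_CCg, and did not pass in either tract comparison (edgeR adjusted p = 0.0878 in knockout and 0.771 in wild type).

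Tmem63c went the other way and was low in optic nerve. Tmem63c (ENSMUSG00000034145.13, chromosome 12, 87021340 to 87090043) had 1.32, 0.684, 0.895, 1.83 and 2.86 CPM in KO_ON libraries, which are 16 to 50 estimated counts, against 6.22 to 31.2 CPM in KO_CCg libraries (median 26.1). It had 0.422, 0.753, 1.78 and 0.996 CPM in WT_ON libraries, which are 11 to 40 estimated counts, against 4.52, 9.59, 24.0, 12.2 and 17.9 CPM in WT_CCg libraries. Each optic nerve library lay below each callosum library. Its level in optic nerve was 0.0649 of that in callosum in knockout (0.0316 to 0.133; edgeR adjusted p = 8.86e-07) and 0.0716 of it in wild type (0.0316 to 0.162; edgeR adjusted p = 1.08e-05).

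Tmem63a, the member tied to a human myelin disorder, was moderately higher in optic nerve. Tmem63a (ENSMUSG00000026519.15, chromosome 1, 180942344 to 180975112) had 489, 431, 456, 457 and 378 CPM in KO_ON libraries, against 183 to 313 CPM in KO_CCg libraries (median 212). It had 412, 461, 412 and 539 CPM in WT_ON libraries, against 393, 343, 267, 377 and 263 CPM in WT_CCg libraries. The ranges of the tracts did not overlap, though in wild type the gap was narrow. The fold was 1.88 in knockout (1.52 to 2.33; edgeR adjusted p = 1.88e-05) and 1.39 in wild type (1.10 to 1.75; edgeR adjusted p = 0.02). The wild-type call ended without WT_CCg_685232 (edgeR adjusted p = 0.0541) or without WT_CCg_7198587 (edgeR adjusted p = 0.0533).

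Tmem63b, the steadiest member, did not pass in either tract comparison. Tmem63b (ENSMUSG00000036026.14, chromosome 17, 45660171 to 45686905) had 93.7 to 114 CPM in KO_ON, 86.6 to 98.5 in WT_ON, 90.8 to 135 in KO_CCg and 96.3 to 126 CPM in WT_CCg. Ranges of the tracts overlapped. The log2 fold change of optic nerve over callosum was -0.16 in knockout (95% interval -0.37 to 0.06; edgeR adjusted p = 0.188) and -0.25 in wild type (-0.49 to -0.02; edgeR adjusted p = 0.0686). Among libraries with 6 or 7 digits alone it was -0.32 in knockout (edgeR adjusted p = 0.00456) and -0.37 in wild type (edgeR adjusted p = 0.00147), so the call depends on which libraries enter. The 2-digit callosum libraries were the lowest of their groups. Exons of Tmem63b share 106 bases with Mrpl14 on the other strand, which had 13.8 ± 1.81 CPM in KO_ON, 13.3 ± 0.801 in WT_ON, 10.5 ± 1.63 in KO_CCg and 11.2 ± 1.62 CPM in WT_CCg.

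Of the 5 members, 3 were higher and 1 lower in optic nerve in each genotype, by edgeR, DESeq2 and limma-voom alike. Calls were frequent in these comparisons: in knockout 62.9% of 16440 genes passed (31.9% higher and 31% lower), and in wild type 51.3% did (25.3% higher and 26% lower). The share of members called is thus near that of all genes and is no result about them. Piezo2, counted among the 3 higher, is a description here, since its callosum levels are part of what chose the members. Piezo1 and Tmem63c passed with at least a 2-fold difference, as did 30.1% of genes in knockout and 26.2% in wild type. Among libraries with 6 or 7 digits alone, the log2 fold changes in knockout and wild type were 4.23 and 3.0 for Piezo2, 1.49 and 1.38 for Piezo1, 0.94 and 0.59 for Tmem63a and -3.95 and -4.20 for Tmem63c.

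**Figure D2:**
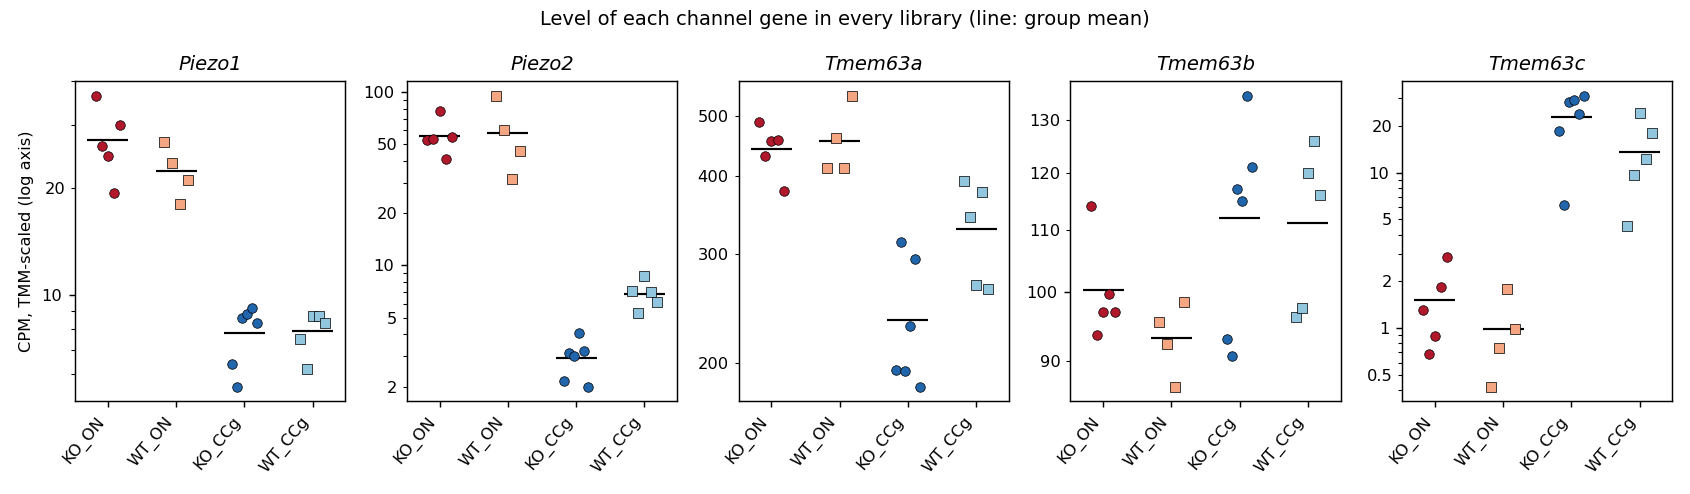
CPM of each channel gene in every library, on log axes that differ between panels; each point is a library and each line a group mean. Piezo1 and Piezo2 are higher and Tmem63c is lower in every optic nerve library than in any callosum library, and the 6 KO_CCg libraries lie below the 5 WT_CCg libraries for Piezo2.

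Between the genotypes in optic nerve, 0 of the 5 members passed by edgeR, DESeq2 or limma-voom, and 0 had an unadjusted p under 0.05 in any of them. By edgeR 2 of 15556 genes passed there (0.0129%), 852 had an unadjusted p under 0.05, and DESeq2 called 35 genes. Piezo2 averaged 56.0 ± 13.4 CPM in KO_ON (SD, n = 5) and 58.1 ± 27.4 CPM in WT_ON (n = 4), a fold of 0.954 with a 95% interval of 0.624 to 1.46 (edgeR adjusted p = 0.974). The spread was wide in wild type, where the highest library had 95.2 and the lowest 31.5 CPM. For Piezo1 the fold was 1.2 (0.933 to 1.55; edgeR adjusted p = 0.845), with 2 of 5 KO_ON libraries above every WT_ON library. Tmem63a had a fold of 0.959 (0.808 to 1.14) and Tmem63b one of 1.06 (0.944 to 1.2), with edgeR adjusted p of 0.936 and 0.862. The interval was widest for Tmem63c, with a fold of 1.51 (0.713 to 3.18; edgeR adjusted p = 0.858) at 11 to 50 estimated counts a library.

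In corpus callosum the genotypes are described with no test, because Piezo2 in this contrast is what brought the members together. Piezo2 had 2.16, 3.11, 3.01, 4.1, 3.21 and 2.0 CPM in KO_CCg libraries, against 7.08, 5.33, 8.64, 7.02 and 6.12 CPM in WT_CCg libraries. All 6 KO_CCg libraries lay below the lowest WT_CCg library, at 42 to 104 estimated counts against 103 to 218. The share of all genes whose ranges lie apart in this contrast was not counted. The fold was 0.426 (95% interval 0.317 to 0.573), and the log2 fold change was -1.20 among 2-digit and -1.25 among longer numbers. With the level of the neuron markers as a covariate it was -1.24, and with that of the fibroblast and meningeal markers -1.19. Over all 15519 genes 6 passed by edgeR in callosum (0.0387%, with 0.0258% lower), and 1816 had an unadjusted p under 0.05; nothing about the members is read from this. Several marker lists were lower in KO_CCg than in WT_CCg as well, with 0 markers called. Of 12 mature oligodendrocyte markers 0 had a positive log2 fold change (median -0.59), and of 10 microglia markers 0 (-0.34). Among fibroblast and meningeal markers 0 of 10 were positive (-0.24), and among those of oligodendrocyte precursors and newly formed oligodendrocytes 1 of 10 (-0.28). Of pericyte and smooth muscle markers 2 of 10 were positive (-0.25), of astrocytes 1 of 10 (-0.11) and of endothelial cells 3 of 10 (-0.03). Tested Schwann and neural crest markers had 2 of 5 positive (-0.36), and those of retina and pigment cells 0 of 3 (-0.23). Neuron markers went the other way, with 16 of 16 positive (0.60), as did those of striatal (10 of 10, 0.83) and cortical excitatory neurons (9 of 10, 0.50). The part of any of these cell types in the Piezo2 difference was not tested, and the fits with covariates are descriptions too.

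Tmem63a averaged 235 ± 55.8 CPM in KO_CCg (SD, n = 6) and 329 ± 60.6 CPM in WT_CCg (n = 5), a fold of 0.710 (0.548 to 0.919), with 4 of 6 KO_CCg libraries below every WT_CCg library. Tmem63c averaged 22.9 ± 9.35 CPM in KO_CCg and 13.6 ± 7.53 CPM in WT_CCg, a fold of 1.65 (0.875 to 3.13), and its groups overlapped. Piezo1 had a fold of 0.983 (0.777 to 1.24) and Tmem63b one of 0.999 (0.832 to 1.2), and both overlapped widely. The difference between the tracts in the genotype effect, optic nerve minus callosum, was 1.16 on the log2 scale for Piezo2 (0.42 to 1.91), 0.44 for Tmem63a (-0.02 to 0.90), 0.30 for Piezo1 (-0.20 to 0.81), 0.10 for Tmem63b (-0.22 to 0.41) and -0.14 for Tmem63c (-1.65 to 1.37). These too are descriptions, since they contain the callosum contrast; of 16440 genes 0 passed for this difference by edgeR (0%), DESeq2 or limma-voom, and 1123 had an unadjusted p under 0.05 by edgeR.

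**Figure D3:**
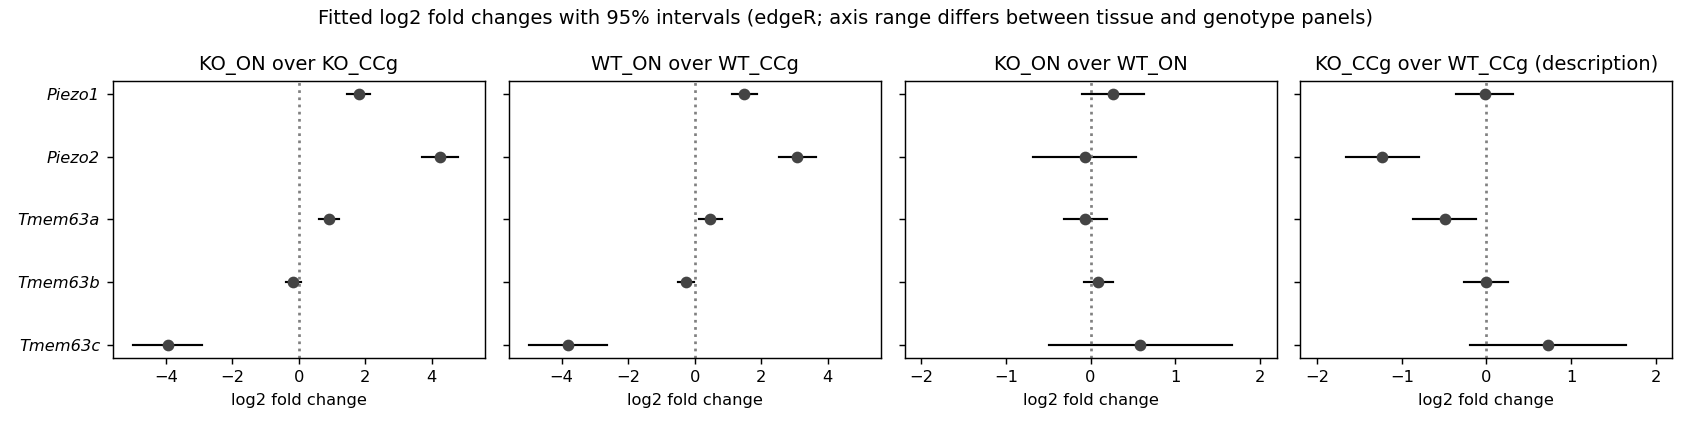
Log2 fold changes of the 5 genes from edgeR with 95% intervals. Panels show optic nerve over callosum in knockout and in wild type, and knockout over wild type in each tract. The callosum genotype panel and the Piezo2 tract values are descriptions. Tract differences reach 4.25 for Piezo2 and -3.94 for Tmem63c in knockout, while all 5 intervals of the optic nerve genotype panel include 0.

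Levels of cell type markers moved with these genes. Summed over 16 neuron markers, the level was 460 to 692 CPM in KO_ON, 459 to 721 in WT_ON, 1820 to 6720 in KO_CCg and 1600 to 4740 CPM in WT_CCg. Of the 16 markers, 16 were called lower in optic nerve in knockout and 13 in wild type, against 31% and 26% of all genes. Between the genotypes 0 passed in either tract, although 16 of 16 had a positive log2 fold change in callosum (median 0.60). Within the groups Tmem63c went with this level: the lowest Tmem63c library of every group was the one with the lowest neuron marker sum. Per 1000 CPM of neuron markers, Tmem63c had 1.49 to 4.27 CPM in KO_ON and 0.920 to 2.46 in WT_ON. In callosum it had 3.41 to 5.50 in KO_CCg and 2.83 to 5.05 CPM in WT_CCg. Its medians on this scale were lower in optic nerve, at 2.42 in KO_ON and 1.68 in WT_ON, against 4.81 in KO_CCg and 3.98 in WT_CCg. With the neuron level as a covariate its log2 fold change between genotypes was -0.04 in optic nerve and -0.02 in callosum, against 0.59 and 0.73 without it. The optic nerve values rest on 11 to 50 estimated counts a library, and the callosum values are a description. The part of neurons in the Tmem63c differences was not tested.

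Tmem63a went with the summed level of the mature oligodendrocyte markers. Their sum over 12 genes was 63400 to 87300 CPM in KO_ON, 81300 to 98200 in WT_ON, 32900 to 64000 in KO_CCg and 52600 to 87600 CPM in WT_CCg. The highest KO_ON library for Tmem63a, at 489 CPM, had a sum of 76800 CPM, while the highest sum went with 457 CPM. Of the 12 markers 8 were called higher and 1 lower in optic nerve in knockout (median log2 fold change 0.54). In wild type 3 were higher and 1 lower (0.23). Over all genes 31.9% were higher and 31% lower in knockout, and 25.3% and 26% in wild type. In callosum 12 of 12 had a negative log2 fold change between genotypes (median -0.59), and 0 passed. Per 1000 CPM of these markers, Tmem63a had 5.24 to 6.36 CPM in KO_ON, 4.78 to 5.49 in WT_ON, 4.83 to 5.56 in KO_CCg and 4.25 to 5.08 CPM in WT_CCg, a much narrower range than that of Tmem63a itself. The part of oligodendrocytes in the Tmem63a differences was not tested.

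For the Piezo genes, markers of several other cell types differed between the tracts in the same direction. All 10 fibroblast and meningeal markers were higher in optic nerve in both genotypes, with a sum of 3540 to 6140 CPM in KO_ON and 3280 to 5430 CPM in WT_ON, against 111 to 174 CPM in KO_CCg and 141 to 184 CPM in WT_CCg. The 10 endothelial markers were all higher too, at 543 to 730 CPM in KO_ON, 634 to 655 in WT_ON, 301 to 347 in KO_CCg and 314 to 366 CPM in WT_CCg. Of 10 markers of pericytes and smooth muscle 8 were higher in each genotype, and of 10 microglia markers 10 were higher in knockout and 9 in wild type. Over all genes 31.9% were called higher and 31% lower in knockout, and 25.3% and 26% in wild type. Astrocyte markers were mixed by gene: of 10, 5 were higher and 2 lower in optic nerve in knockout (median log2 fold change 0.39), and 4 were higher and 3 lower in wild type (0.13). Their sum was higher in optic nerve, at 9400 to 12800 CPM in KO_ON and 9530 to 12300 in WT_ON, against 3620 to 4710 in KO_CCg and 4010 to 5040 CPM in WT_CCg. Gfap, 1 of the 10, averaged 7150 CPM in KO_ON, 6950 in WT_ON, 604 in KO_CCg and 895 CPM in WT_CCg. Markers of oligodendrocyte precursors and newly formed oligodendrocytes were mixed as well. Of 10, 6 were higher and 3 lower in knockout (median log2 fold change 0.43), and 3 were higher and 3 lower in wild type (0.07). Of 5 tested Schwann and neural crest markers 3 were higher and 1 lower in knockout, and 2 higher and 1 lower in wild type. No marker of any of these lists was at 0 in all libraries. Among the 4 WT_ON libraries, that with 95.2 CPM of Piezo2 had the lowest neuron sum, 459 CPM, and that with 31.5 CPM had the highest, 721 CPM. In KO_ON the order was less plain. The library with the lowest Piezo2 level, 40.8 CPM, had the highest sum, 692 CPM. The lowest sum, 460 CPM, went with 53.8 CPM of Piezo2, and the highest Piezo2 level, 77.8 CPM, with a sum of 529 CPM. The part of any of these cell types in the differences of the Piezo genes was not tested.

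**Figure D4:**
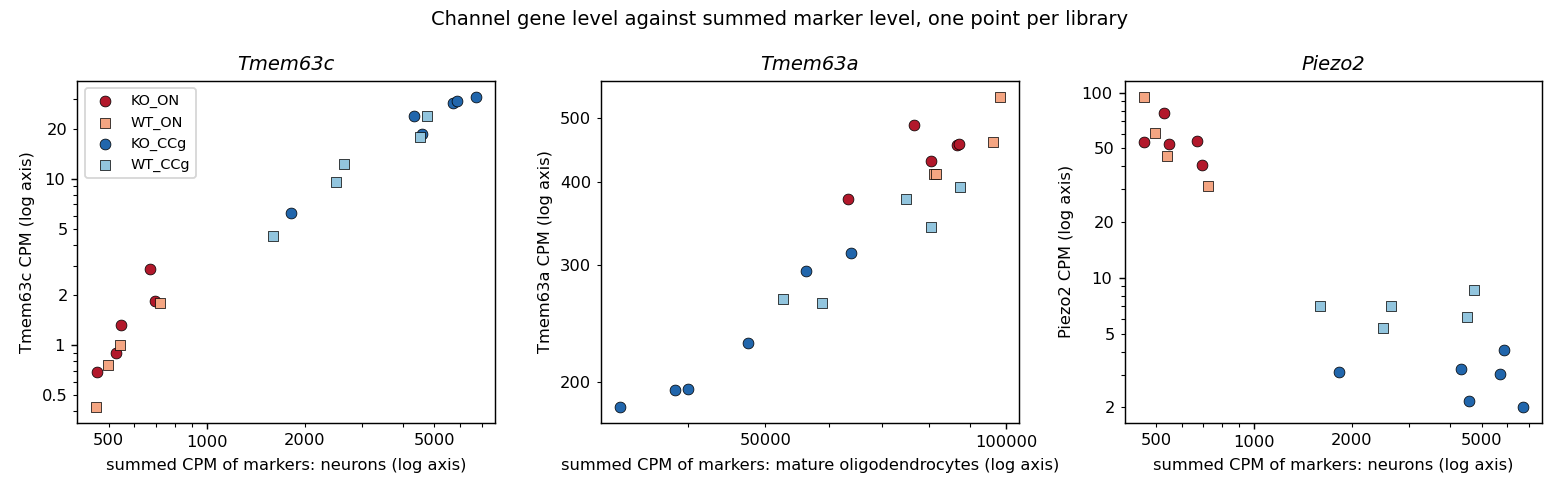
CPM of Tmem63c, Tmem63a and Piezo2 in each library against the summed CPM of neuron or mature oligodendrocyte markers, on log axes. Tmem63c climbs with the neuron sum and Tmem63a with the oligodendrocyte sum across all 4 groups. Piezo2 is higher in every optic nerve library than in any callosum library, and lower in every KO_CCg library than in any WT_CCg library. The part of these cell types was not tested.

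Genes whose levels were most like each member over the 20 libraries were picked by Pearson correlation of log2 CPM among 15081 named protein-coding genes, given as a description because all points share libraries and the step between tracts. They were Itpr3, an IP3 receptor, at 0.989 for Piezo1, the protease gene Tmprss5 at 0.987 for Piezo2, Tmbim1 at 0.986 for Tmem63a, Ppp2r5b, a phosphatase subunit, at 0.927 for Tmem63b and Pianp at 0.996 for Tmem63c. Taken as deviations from the 4 group means, which removes that step, the closest were Itpr3 (0.894), Bmp7 (0.893) and Adamts2 (0.883) for Piezo1, and Lif (0.854), Masp1 (0.836) and Tmprss5 (0.834) for Piezo2. For Tmem63a they were Cers2, a ceramide synthase of myelin lipids (0.976), and the oligodendrocyte transcription factors Myrf (0.968) and Sox10 (0.963). For Tmem63c they were Pianp (0.970), the synaptic vesicle gene Syp (0.968) and Pacsin1 (0.965). For Tmem63b they were Scaf1 (0.950), Zdhhc8 (0.934) and Mapk8ip3 (0.924). Between members, the deviations of Piezo1 and Piezo2 had a correlation of 0.490, and those of Tmem63a and Tmem63c of -0.585.

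Other channel genes linked to mechanical force differed between the tracts in both directions. Of 31 on the list 28 were tested between the tracts. In knockout 10 were higher and 9 lower in optic nerve (median log2 fold change 0.08, against 0.00 over all genes), and in wild type 12 were higher and 8 lower (0.02, against -0.03). Over all genes 62.9% passed in knockout and 51.3% in wild type, so the share called was near that of genes at large. Ano6, a lipid scramblase and channel, was higher in optic nerve at 116 against 27.6 CPM in knockout (log2 fold change 2.07, edgeR adjusted p = 6.26e-11) and 101 against 26.6 CPM in wild type (1.92, edgeR adjusted p = 1.37e-09). The cation channel gene Trpv2 was higher too, by 1.40 in knockout and 1.49 in wild type on the log2 scale. Lower in optic nerve were Trpc6 (-3.02 in knockout and -2.67 in wild type), Trpc5 (-2.98 and -2.10), Tmem150c (-2.22 and -2.06) and the stretch-sensitive potassium channel gene Kcnk10 (-2.47 and -1.94). Lrrc8e (0.84 and 1.56) and Lrrc8a (0.32 and 0.43), subunits of the volume-regulated anion channel, passed in wild type and missed the threshold in knockout. Between genotypes 0 of 27 tested members passed in either tract by edgeR, with 0 at an unadjusted p under 0.05.

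**Figure D5:**
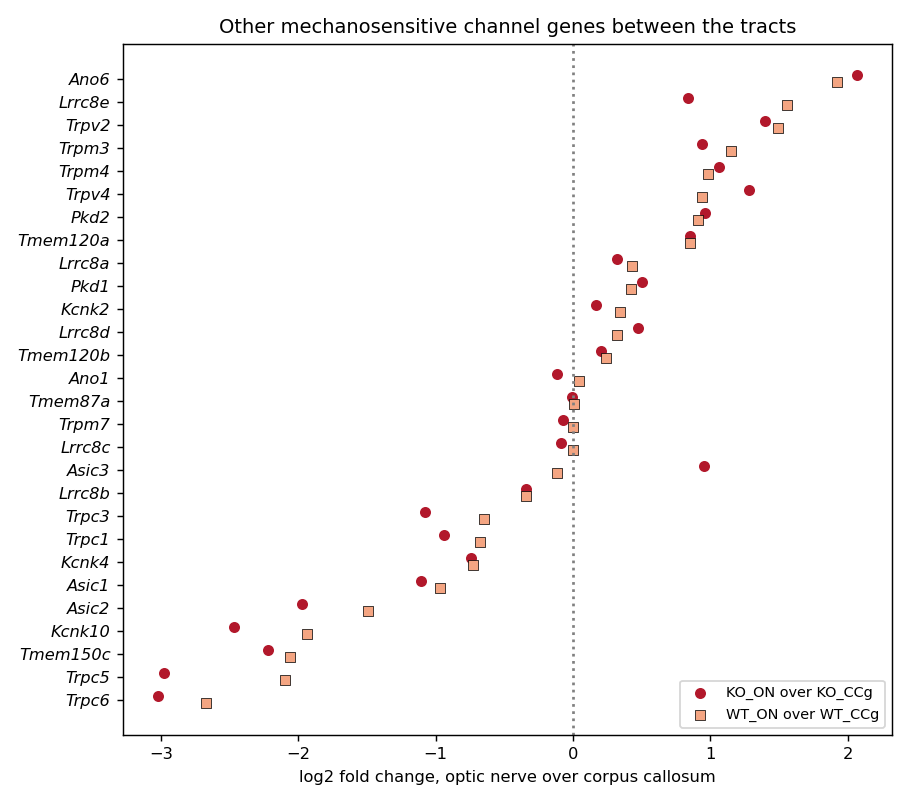
Log2 fold changes of 28 other mechanosensitive channel genes for optic nerve over callosum, in knockout (circles) and in wild type (squares), ordered by the wild-type value. Ano6 lies furthest to the right, at 2.07 in knockout and 1.92 in wild type, and Trpc6 furthest to the left, at -3.02 in knockout and -2.67 in wild type.

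The next list holds genes of proteins that bind Piezo channels or tie the membrane to the actin skeleton. It was chosen with earlier results of these data known, so its counts are a description and no test of the list. Of 17 such genes 12 were higher and 3 lower in optic nerve in knockout (median log2 fold change 0.86, against 0.00 over all genes, of which 31.9% were higher and 31% lower). In wild type 12 were higher and 2 lower (0.81, against -0.03 over all genes, of which 25.3% were higher and 26% lower). Mdfi and Mdfic, whose proteins bind Piezo channels and slow their closing, were both among them. Mdfi had 12 against 0.913 CPM in knockout (log2 fold change 3.71, SE 0.23) and 9.18 against 1.27 CPM in wild type (2.84, SE 0.24). Mdfic had 22.8 against 6.19 CPM in knockout (1.88, SE 0.14) and 20.5 against 6.27 CPM in wild type (1.71, SE 0.16). The membrane myosin gene Myo1c (2.27 and 2.10), the stomatin gene Stom (1.99 and 1.83) and the moesin gene Msn (2.18 and 1.80) were higher in knockout and in wild type. Stoml3, a stomatin relative that sensitises Piezo channels in sensory neurons, was lower (-2.81 and -3.72), at 0.562 against 4.00 CPM in knockout and 0.341 against 4.51 CPM in wild type. Mtmr2 (-0.53 and -0.44) and Ezr (0.13 and -0.27) were named as members that missed the threshold in at least 1 genotype. Between genotypes 0 members passed in either tract by edgeR; at an unadjusted p under 0.05 there were 2 of 16 in optic nerve and 0 of 17 in callosum.

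Yap and Taz are coactivators whose target genes respond to force and stiffness. Their list too was chosen with earlier results of these data known, so its counts are a description and no test of the pathway. Of 15 genes tested of this pathway, 13 were higher and 0 lower in optic nerve in knockout (median log2 fold change 1.05), where 31.9% of all genes were higher, with a median of 0.00. In wild type 10 were higher and 0 lower (0.71), where 25.3% of all genes were higher, with a median of -0.03. Ccn2, a matrix protein gene and common target, had 324 against 53.7 CPM in knockout (log2 fold change 2.59, SE 0.54) and 287 against 33.8 CPM in wild type (3.08, SE 0.60). The receptor kinase gene Axl (1.76 in knockout and 1.59 in wild type), the coactivator Yap1 (1.2 and 1.11), its DNA-binding partners Tead4 (2.12 and 2.03) and Tead3 (1.38 and 1.15) and Ajuba (1.86 and 1.22) were higher. Tead2 (0.59 and 0.45) and Lats2 (0.47 and 0.21) passed in knockout alone, and a difference between the genotypes was not called for any gene. Between genotypes 0 of 15 members passed in either tract by edgeR, with 3 at an unadjusted p under 0.05 in each. The fibroblast, vascular and glial marker sums given above stood beside these differences too, and their part in them was not tested.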

How the data were processed

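The authors deposited a table of estimated counts per gene and library (expected counts, not all whole and not scaled to a common total). The library kit was stranded per the labels' protocols, and the submitters' notes name the build mm10. No source used here states the annotation, the version of the quantifier or its use of strand. Of 46517 gene IDs 46005 had a symbol in GENCODE M21, matched without the version suffix, and positions and lengths come from that release. Counts were rounded, genes of low count were dropped by filterByExpr (at least 10 in enough libraries, 15 in all), and TMM factors scaled the libraries. The edgeR 4.0.16 quasi-likelihood test was fitted to each tract for the genotype, and to all 20 libraries in 4 groups for the tract contrasts, with Benjamini-Hochberg adjustment over all genes and a threshold of 0.05. A standard error is the log2 fold change over the square root of F. DESeq2 1.42.0 and limma 3.58.1 were alternatives, beside other scalings, filters, covariates and left-out libraries; the fibroblast covariate, the unrounded counts and the fit of 6 libraries without a block were added after seeing the data. The fits were tested on simulated counts. The 5 members, the lists and the markers were chosen with earlier results of these data known. Named from each list were up to 6 genes that passed in both tract comparisons, with the largest wild-type log2 fold change, and up to 2 that did not, with the smallest p. For each member the 3 most correlated genes were ranked over levels and over deviations from group means.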

Additional observations from a re-analysis of the deposited data

How the results depend on the processing

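The number of genes called between genotypes in callosum depended most on the processing: 6 by edgeR, 174 by DESeq2, 3 by limma-voom, 41 in the fit of all 20 libraries, 10 with the number format as a covariate, 2 among longer and 0 among 2-digit numbers, and 2 to 41 with single libraries left out, the highest without WT_CCg_685232. In optic nerve 2 genes became 35 by DESeq2 and 1 among 6-digit numbers. For the difference of the effects 0 became 1 without KO_ON_717651. The optic nerve genotype log2 fold change of Piezo2, -0.07, was 0.02 by limma-voom, 0.41 with the neuron level as covariate, 0.02 without KO_ON_717651 and 0.28 without WT_ON_700858. With single libraries left out it spanned -0.27 to 0.28. That of Tmem63a spanned -0.11 to 0.04, the highest without WT_ON_719857, and that of Tmem63c was -0.04 with the neuron level as covariate. The causes were not tested. Tract differences of Piezo1 and Tmem63c kept direction and call in all alternatives run, and that of Piezo2, a description, kept its direction.

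In the knockout 3 sample numbers, those of KO_ON_693452, KO_ON_717651 and KO_ON_719856, occur in both tissues, and in wild type 1 does, that of WT_ON_717652. Their deviations from the group means had correlations of 0.018, -0.153 and 0.134 in knockout and -0.053 in wild type, and the labels tie no number to an animal, so the samples were taken to share a number only; 1 of 3 knockout callosum and 2 of 3 knockout optic nerve libraries correlated best with their own number. With the replicate block over the 6 knockout libraries 7047 genes were called, against 7508 without it, and Piezo2 was at 4.22 in both.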
